A study of Mus musculus with 3 samples.

Results

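Genes that make fatty acids, sterols and milk fat were examined in cultures of PyMT tumor cells treated with RANKL (RL). The 42 genes were chosen by name for these functions, with earlier results of these data known. They were divided by role into 14 genes of fatty acid synthesis, 13 genes of sterol synthesis, 5 regulators of the SREBP transcription factors and 10 genes of triglyceride synthesis, fatty acid uptake and the milk fat globule. All 42 had a probe on the array, which held probes for 36799 genes and transcripts. Of these, 21743 were bright enough to be tested, among them 40 of the 42 genes.

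Primary cultures of mammary tumors from 3 MMTV-PyMT mice, called tumors 1, 2 and 3 here, were either treated with RL for 24 h or left untreated as controls. RNA from both cultures of a tumor was labeled with different dyes and hybridized to 1 Agilent mouse expression array, which gave 3 arrays and 6 channels, with 1 RL culture and 1 control culture for each tumor. By the labels RL was in Cy3 for tumors 1 and 3 and in Cy5 for tumor 2. The methods state that the dyes were swapped for every sample, while 1 array was deposited for each tumor. The study names another series for its mouse arrays, so these were matched to its RL cultures by their labels and the methods. The comparison asks which genes change when RL, the ligand of the receptor RANK, is added to tumor cultures. Markers of fibroblasts and leukocytes were also found in these cultures. In both groups the cells carried the polyoma middle T oncogene under the MMTV promoter, which is active in mammary epithelium and responds to steroid hormones, and by the labels the medium of both held serum (5% FBS), cholera toxin, insulin and EGF. The labels give an RL dose of 1000 µg/mL and the methods give 1 µg/mL. The methods describe acinar cultures on matrigel, made with cells of RANK+/+ or RANK−/− tumor transplants, to which RL was added 24 h after plating. The study acquired PyMT mice as FVB/N and backcrossed them with RANK+/− mice into C57BL/6. It names C57BL/6 for the mice whose tumor cells were transplanted. The labels give neither the strain nor the age of the 3 donors. Cy3 spots had a median intensity of 42 to 45 on the 3 arrays, where the background around them was 31 to 36, and Cy5 spots had 96.5 to 100.5, with a background of 70 to 73. With 3 arrays, the precision of every value is limited by their number.

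Cytosolic acetyl-CoA feeds both pathways: fatty acid synthase builds saturated chains from it, and the mevalonate pathway turns it into squalene and then cholesterol. When sterols are scarce, Scap carries SREBP to the Golgi, where it is cut and released to the nucleus, and the Insig proteins hold this complex back in the endoplasmic reticulum. The lactating mammary gland makes large amounts of fatty acids, esterifies them to triglyceride and secretes the droplets wrapped in plasma membrane as milk fat globules, a process that prolactin and insulin promote.

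The cultures were first checked for the cell types that could carry these genes. All 9 luminal epithelial markers, among them Epcam, Krt8, Krt18 and Elf5, were well above background, and so were 5 of 6 basal markers, all but Myh11. Of 6 adipocyte markers, Adipoq, Plin1, Lep and Cidec were not well above background in any control culture and Cfd was in 1, which left Retn. The summed intensity of the adipocyte list was 413 in the control and 397 in the RL culture of tumor 1, 412 and 424 in tumor 2, and 401 and 394 in tumor 3, with Retn the brightest. Fabp4, a fatty acid carrier of fat cells that was listed with the fat globule genes and is named here after its values were seen, was well above background in all 3 controls, at 7.44, 9.41 and 8.48, with log2 ratios of 0.27, −0.05 and 0.27. The summed luminal markers, led by Krt18, gave 382664 in the control and 327663 in the RL culture of tumor 1, 255807 and 281453 in tumor 2, and 451924 and 356703 in tumor 3. Krt18 alone had log2 ratios of RL over control of −0.73, 0.43 and −0.70, so the direction of this sum followed the dye order. Fibroblast markers, led by Col1a1, summed to 9235 and 7584, 4345 and 4677, and 18016 and 17451 in the control and RL cultures of tumors 1, 2 and 3. All 7 leukocyte markers and 3 of 5 endothelial markers were bright enough to be tested. In the same order, leukocyte markers, led by Itgam, summed to 7814 and 7203, 7261 and 7877, and 8712 and 8044. Endothelial markers, led by Kdr, summed to 2392 and 2616, 2379 and 2328, and 2293 and 2539. The median log2 ratio of RL over control was −0.02 for the luminal, −0.09 for the basal, −0.06 for the fibroblast, 0.10 for the endothelial and −0.03 for the leukocyte markers tested. The tumors differed in these medians, with 0.17, −0.17 and −0.07 for the luminal, 0.05, −0.03 and −0.06 for the basal, −0.30, 0.16 and −0.05 for the fibroblast, 0.06, 0.15 and 0.11 for the endothelial and −0.12, −0.03 and −0.02 for the leukocyte markers in tumors 1, 2 and 3. Picked out after their values were seen, the markers lower with RL in every tumor were Elf5 (mean −0.14), Pdgfra (−0.19), Cd68 (−0.23) and Tyrobp (−0.16). Trp63 (0.04) and Esam (0.16) were higher in every tumor. The lower ones were 1 of 9 luminal, 1 of 7 fibroblast and 2 of 7 leukocyte markers tested. The higher ones were 1 of 5 basal and 1 of 3 endothelial markers tested. Of all genes tested, 13.5% were lower and 14.1% higher in all 3 tumors. None of these 6 passed the adjusted p of 0.05 by limma with all 3 tumors. Without tumor 2, where only 1 dye order remains, Cd68 did (0.0499). So did the luminal markers Krt18, which was lower (−0.72, adjusted p 8.91e-07), and Cldn7, which was higher (0.30, adjusted p 0.0291). In such bulk cultures, fewer cells of a type and less RNA per cell cannot be told apart.

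All 40 genes tested were well above background in all 6 channels, and their differences between RL and control were small. By limma with Benjamini-Hochberg adjustment over all genes, 0 of the 40 passed an adjusted p of 0.05, against 0.0276% of all genes tested (6 of 21743, with 0.0046% higher and 0.023% lower). At an unadjusted p under 0.05, limma gave 1 gene higher with RL, Sc5d, and 6 lower, namely Thrsp, Scd1, Fasn, Insig1, Dgat2 and Plin2. Over all genes these shares were 3.53% higher and 3.57% lower. A rank product, which ranks genes within each array, gave Scd1 alone at a proportion of false positives under 0.05 (0.17% of all genes higher and 0.235% lower). A mean log2 ratio of at least 0.25 in size with one sign in all 3 tumors was found for Scd1 and Thrsp, which were lower, and for Sc5d, which was higher. Of all genes tested, 1.2% were lower and 1.08% higher by this measure.

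The direction was more often down than up. In all 3 tumors 17 of the 40 genes were lower with RL (42.5%) and 1 was higher (2.5%), while 13.5% of all genes tested were lower and 14.1% higher in all 3. The 42 genes were chosen with earlier results of these data known, so this count is a description. Among further genes of these pathways, 0 of 9 sterol, 2 of 19 fatty acid and 1 of 18 triglyceride and fat globule genes were lower in all 3. Higher in all 3 were 2, 1 and 2 of them. The median log2 ratio was −0.13 for fatty acid synthesis, 0.02 for sterol synthesis, −0.13 for the SREBP regulators and −0.12 for triglyceride and fat globule genes, beside −0.0017 for all genes. These medians depended on the tumors used. Without tumor 1 they were −0.05, −0.03, −0.04 and −0.04, without tumor 2 the sterol median was 0.07 and that of the SREBP regulators −0.24, and without tumor 3 the sterol median was −0.05. They also depended on the correction for intensity. With each array centred on its median in place of loess, the median of all genes moved to −0.11 and none of the 40 genes kept one sign in all 3 tumors, against 2.54% of all genes higher and 3.42% lower. Relative to that shift the 4 medians were −0.20, −0.03, −0.19 and −0.16, so that the sterol median changed sign. Being close to 0, the sterol median was also below it with the dye in the model (−0.04) and with the mean over the probes of a gene (−0.03).

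**Figure D1:**
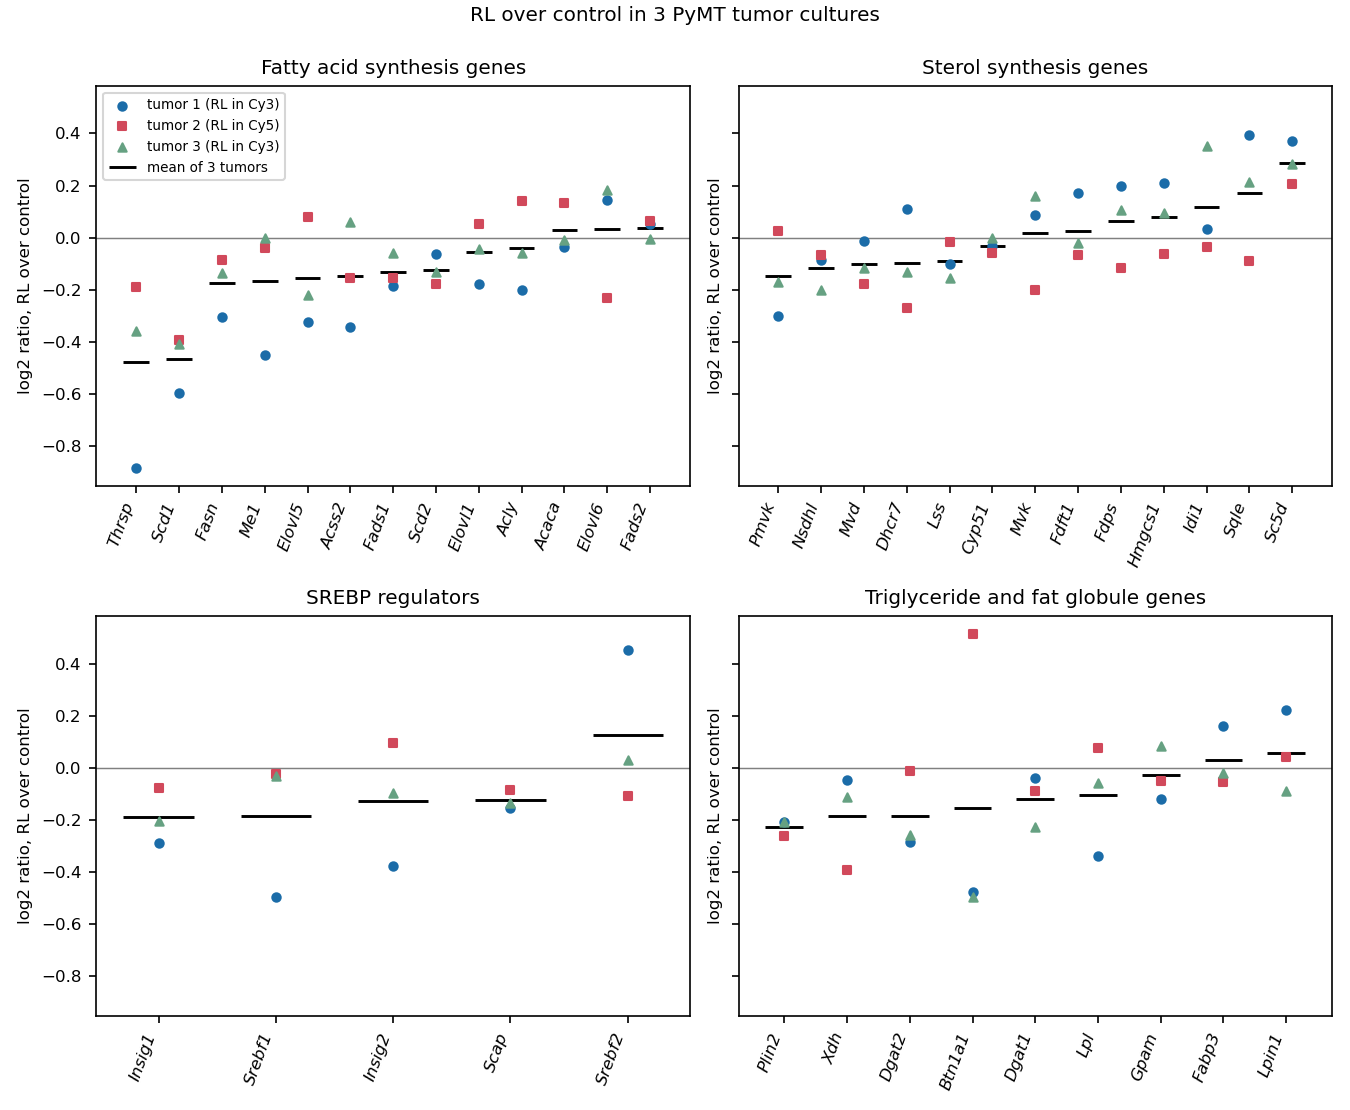
Log2 ratio of RL over control (y axis) of the 40 genes tested, 1 panel for each role, with 1 point for each tumor and a bar at the mean of 3 tumors. Thrsp and Scd1 have the lowest means, −0.48 and −0.47, Sc5d has the highest, 0.29, and the squares of tumor 2, whose RL culture was in Cy5, often lie on the other side of 0 from tumors 1 and 3.

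Promoters of these genes, 250 bases before to 50 after the start site in the RefSeq table of GRCm38.p6, were searched on both strands for 4 motifs, and 31 of the 42 genes had an entry. The sterol regulatory element, searched as TCACNCCAC, was in 1 of the 31 genes, Hmgcs1, and in 1.44% of all genes with an entry. CCAAT, the box of NF-Y, which works beside SREBP at sterol genes, was in 24 of 31 genes (77.4%) and in 41.1% of all genes with an entry. It was in 10 of 10 sterol synthesis genes, 7 of 11 fatty acid synthesis genes, 4 of 5 SREBP regulators and 3 of 5 triglyceride and fat globule genes. The E-box CACGTG was in 6 of 31 genes and 8.09% of all genes with an entry, and TTCNNNGAA, the site of Stat factors, was in 0 of 31 and in 9.55% of all genes with an entry. Counted by promoter, of which the 31 genes had 42, the sterol regulatory element was in 2.38%, CCAAT in 59.5%, CACGTG in 16.7% and TTCNNNGAA in 0%, beside 1.24%, 37.4%, 7.15% and 8.3% of all 32851 promoters. A match is a description of the window, and no match says only that these letters are not in this window. The stretches of 60 bases below lie before the start site, 5′ to 3′ on the strand of the gene, and are shown for 2 genes that were lower with RL in all 3 tumors, for Sc5d, which was higher in all 3, and for Hmgcs1, which holds the sterol regulatory element. Capitals mark CCAAT or its complement ATTGG, and in Hmgcs1 the sterol regulatory element. The pair of matches in Fasn overlap.
Thrsp, chr7:97417570-97417629, minus strand: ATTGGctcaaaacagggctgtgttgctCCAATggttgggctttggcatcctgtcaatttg
Fasn, chr11:120824574-120824633, minus strand: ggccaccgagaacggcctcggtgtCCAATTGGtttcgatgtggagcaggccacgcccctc
Hmgcs1, chr13:119690189-119690248, plus strand: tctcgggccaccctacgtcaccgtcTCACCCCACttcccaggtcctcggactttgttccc
Sc5d, chr9:42264301-42264360, minus strand: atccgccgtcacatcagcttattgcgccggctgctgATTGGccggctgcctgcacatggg
The marked match nearest the start site ended 47 bases before it in Thrsp, 54 in Fasn and 19 in Sc5d, and the element of Hmgcs1 ended 128 bases before it. Thrsp and Sc5d, which went in opposite directions, both held CCAAT, as did Hmgcs1, whose window had 4 matches outside the stretch shown.

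Fatty acid synthesis held the 2 genes with the largest differences. Scd1, the desaturase that turns stearate into oleate, had a normalized log2 intensity of 15.72, 15.21 and 14.90 in the control cultures of tumors 1, 2 and 3 and of 15.13, 14.82 and 14.49 in their RL cultures. It was bright in all 6 channels and lower with RL in each tumor, although the 2 groups overlapped because the tumors differed. The log2 ratios were −0.59, −0.39 and −0.41, with a mean of −0.47 ± 0.11 (SD, n = 3), a 1.38-fold lower level. The 95% interval of limma was −0.63 to −0.30 and the adjusted p was 0.136. With a term for the dye in the model, which leaves 1 residual degree of freedom, the estimate was −0.45 with an adjusted p of 0.000396, and the proportion of false positives by rank product was 0.0241. Only tumor 2 had RL in Cy5, so the fit with the dye term matches it exactly, for this and every other gene. The p of that fit rests on the spread between tumors 1 and 3 and on the variance that limma borrows from all genes. Over all settings the estimate of Scd1 stayed between −0.68 and −0.40 and its adjusted p between 0.000175 and 1.

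Thrsp (Spot 14), a lipogenic factor of liver and mammary gland that is needed for full milk fat synthesis, was at 11.85, 11.98 and 10.82 in the controls and 10.97, 11.79 and 10.46 with RL. The RL culture was the lower one in each tumor, by most in tumor 1, and the groups overlapped. Its log2 ratios were −0.88, −0.19 and −0.36, with a mean of −0.48 ± 0.36 (SD, n = 3) and an adjusted p of 0.390 by limma. The dye term gave −0.40 with an adjusted p of 0.00526, within a range over settings of 4.9e-05 to 1. Without tumor 1 the mean was −0.27. With the dye term Scd1 and Thrsp were the 2 genes of the 40 past the threshold, both lower, against 0.769% of all genes lower and 0.575% higher.

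Fasn, the synthase itself, was at 10.09, 9.56 and 9.79 in the controls and at 9.79, 9.48 and 9.66 with RL. Each RL culture lay below its control, by most in tumor 1, and the groups overlapped. The mean log2 ratio was −0.18 ± 0.12 (SD, n = 3), with an adjusted p of 0.698 by limma. Without tumor 1 it was −0.11, and under median centring −0.31. Acaca, the acetyl-CoA carboxylase that makes malonyl-CoA for Fasn, was at 14.09, 13.63 and 14.03 in the controls and at 14.05, 13.76 and 14.02 with RL. Its ratios of −0.04, 0.13 and −0.0091 had no common sign, while its other 2 probes, both dimmer, were above 0 in every tumor, with 0.21, 0.10 and 0.03, and 0.26, 0.17 and 0.29. Under median centring and without tumor 2 the sign of Acaca turned, to −0.19 and −0.02.

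Of the enzymes that supply the synthase, Acly, which cleaves citrate to acetyl-CoA, had ratios of −0.20, 0.14 and −0.06, and Acss2, which makes acetyl-CoA from acetate, had −0.34, −0.16 and 0.06. Their dimmer second probes were below 0 in every tumor, with −0.04, −0.11 and −0.01 for Acly and −0.17, −0.21 and −0.21 for Acss2. Me1, the malic enzyme that supplies NADPH, had ratios of −0.45, −0.04 and −0.0032 with its brightest probe. Its other 2 probes gave −0.44, −0.19 and −0.27, and −0.34, −0.29 and −0.03, so that the 3 probes were below 0 in every tumor and differed in size in tumors 2 and 3. Scd2, a second stearoyl-CoA desaturase, was lower in each tumor (−0.06, −0.18 and −0.13), and so was Fads1 (−0.18, −0.15 and −0.06), a desaturase of polyunsaturated fatty acids. Both differences were smaller than that of Scd1. The other desaturase of polyunsaturated fatty acids, Fads2, had a mean of 0.04, and the elongases Elovl1, Elovl5 and Elovl6 had means of −0.06, −0.15 and 0.03, each with mixed signs, while a dimmer second probe of Elovl1 had −0.07, −0.05 and −0.10. In all, 6 of 13 fatty acid synthesis genes were lower in every tumor (Thrsp, Scd1, Fasn, Me1, Scd2 and Fads1) and none was higher. This is 46.2%, beside 13.5% of all genes tested. With the mean over the probes of a gene 7 were lower and 1 higher. With the processed signals 5 were lower and 1 higher, and under median centring 0 were lower and 0 higher. Olah, the thioesterase that ends chains at medium length in the mammary gland, was well above background in 2 control and 2 RL channels and was not tested.

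**Figure D2:**
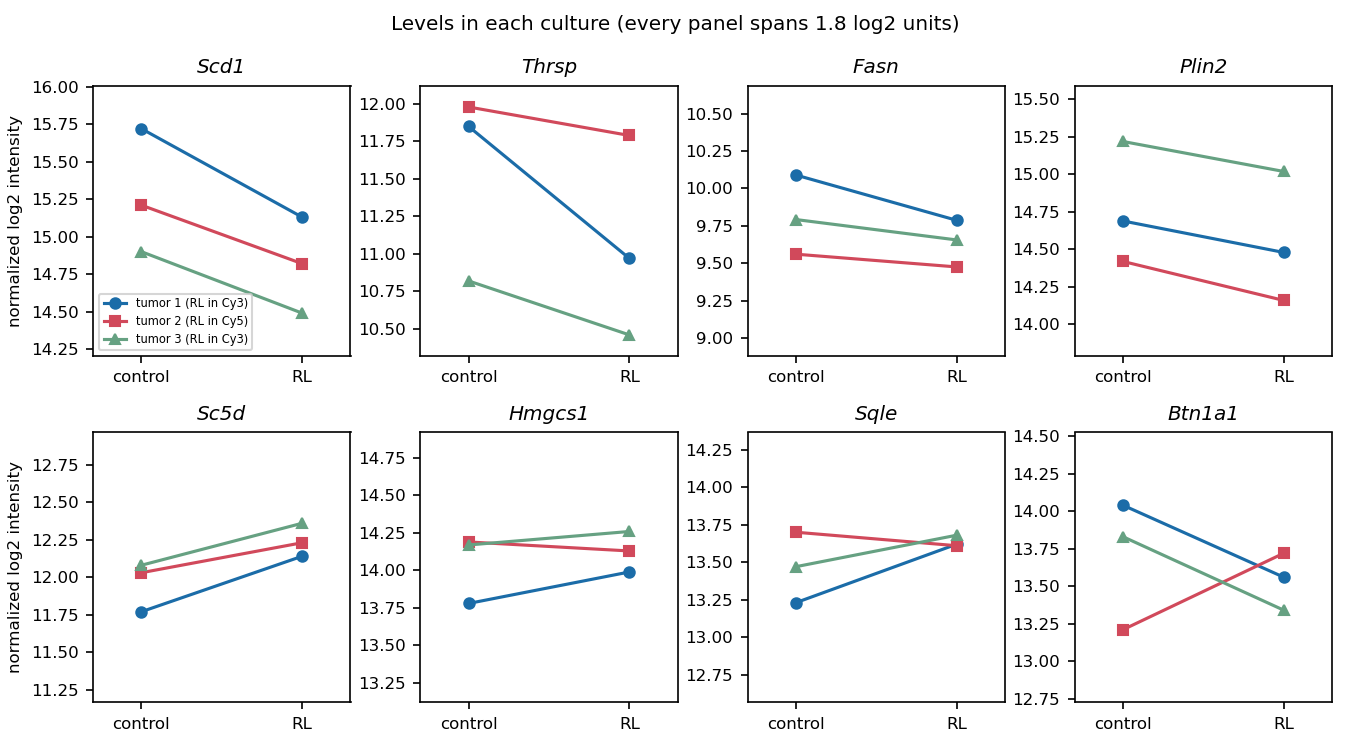
Normalized log2 intensity (y axis) of 8 genes in the control and RL culture of each tumor, joined by a line for each tumor, with y axes of equal span. Scd1, Thrsp, Fasn and Plin2 slope down in all 3 tumors, Sc5d slopes up in all 3, and Btn1a1 slopes down in tumors 1 and 3 and up in tumor 2.

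The sterol synthesis genes did not move together. Sc5d, the lathosterol oxidase late in the pathway, was at 11.77, 12.03 and 12.08 in the controls and at 12.14, 12.23 and 12.36 with RL. The 3 RL cultures lay above the 3 controls without overlap, as they did for 1.55% of all genes tested, and Sc5d was the only one of the 40 genes with this pattern. Its log2 ratios were 0.37, 0.21 and 0.28, with a mean of 0.29 ± 0.08 (SD, n = 3), a 1.22-fold higher level, a 95% interval of 0.13 to 0.45 and an adjusted p of 0.388 by limma. Over the settings the estimate lay between 0.14 (under median centring) and 0.33 (without tumor 2). The adjusted p ranged from 0.0141 to 1 over the settings, with the lowest value when tumor 2 was left out.

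Hmgcs1, which makes HMG-CoA at the head of the mevalonate pathway and whose promoter stretch is printed above, was at 13.78, 14.19 and 14.17 in the controls and at 13.99, 14.13 and 14.26 with RL. The RL culture was above its control in tumors 1 and 3 and below it in tumor 2, and the groups overlapped. Its mean log2 ratio was 0.08 ± 0.14 (SD, n = 3), with an adjusted p of 0.888 by limma, and under median centring it was −0.10. Sqle, the squalene epoxidase, had the same order of signs. It was at 13.23, 13.70 and 13.47 in the controls and at 13.62, 13.61 and 13.68 with RL. The ratios were 0.39, −0.09 and 0.21, with a mean of 0.17 ± 0.24 (SD, n = 3) and an adjusted p of 0.780 by limma. Sqle was at 0.06 without tumor 1, at 0.30 without tumor 2 and at 0.01 under median centring.

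Small differences of one sign were found for 4 further enzymes, which were lower in all 3 tumors. The mean log2 ratio was −0.10 for Mvd, which makes isopentenyl diphosphate, −0.09 for Lss, which closes squalene epoxide to lanosterol, −0.03 for Cyp51, the lanosterol demethylase, and −0.12 for Nsdhl, a sterol dehydrogenase. For Nsdhl a dimmer second probe had a mean of 0.04. The kinases Mvk and Pmvk, which phosphorylate mevalonate and then phosphomevalonate, had means of 0.02 and −0.15, and the second probe of Mvk a mean of −0.08. Pmvk had ratios of −0.30, 0.03 and −0.17, and −0.07, −0.17 and −0.03 with its second probe. Idi1, which isomerizes isopentenyl diphosphate, had ratios of 0.03, −0.04 and 0.35, and Fdps, which makes farnesyl diphosphate, had 0.20, −0.12 and 0.11. Fdft1, the squalene synthase, and Dhcr7, which makes cholesterol in the last step, had means of 0.03 and −0.10 with mixed signs. Of the 13 sterol genes, 6 had one sign in tumors 1 and 3 and the other in tumor 2. The median over the 13 genes was 0.09, −0.07 and −0.0022 in tumors 1, 2 and 3, while the fatty acid synthesis genes had −0.20, −0.09 and −0.06.

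Among the SREBP regulators, Srebf1, which encodes the SREBP of fatty acid synthesis, was at 9.76, 9.81 and 8.88 in the controls and 9.26, 9.79 and 8.84 with RL. Only tumor 1 had a clear difference, with a ratio of −0.49, and the other two were at −0.02 and −0.03. The mean was −0.18 ± 0.27 (SD, n = 3), with an adjusted p of 0.780 by limma. Srebf2, which encodes the SREBP of sterol synthesis, was at 10.44, 11.00 and 10.71 in the controls and 10.89, 10.90 and 10.74 with RL. Tumor 1 again stood apart, in the other direction, with ratios of 0.45, −0.11 and 0.03 and a mean of 0.13 ± 0.29 (SD, n = 3). The adjusted p was 0.865 by limma, the mean was −0.04 without tumor 1 and −0.03 under median centring, and a second, dimmer probe had a mean of −0.00072.

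Insig1, a sterol sensor that is itself a target of SREBP, was at 9.32, 9.17 and 8.76 in the controls and at 9.03, 9.09 and 8.56 with RL. It was lower with RL in each tumor, and the groups overlapped. The mean was −0.19 ± 0.11 (SD, n = 3), with an adjusted p of 0.659 by limma. Insig2 had ratios of −0.38, 0.09 and −0.10, and its second probe a mean of 0.02. Scap, the escort of SREBP, had ratios of −0.15, −0.08 and −0.13, with a mean of −0.12 ± 0.04 (SD, n = 3) and an adjusted p of 0.779. Its 3 RL cultures, at 12.76 to 12.91, lay below the 3 controls, at 12.91 to 13.04, by less than the rounding. It was the only one of the 40 genes with all RL channels below all controls, a pattern of 1.33% of all genes tested.

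Of the triglyceride and fat globule genes, Xdh, the xanthine oxidoreductase that binds butyrophilin at the surface of the globule, was at 11.24, 10.84 and 10.33 in the controls and 11.19, 10.45 and 10.22 with RL. It was lower with RL in all 3 tumors, by most in tumor 2, with ratios of −0.05, −0.39 and −0.11. The mean was −0.18 ± 0.18 (SD, n = 3), with an adjusted p of 0.718 by limma. Without tumor 2 it was −0.08, and under median centring −0.34. Btn1a1, the butyrophilin, was at 14.04, 13.21 and 13.83 in the controls and 13.56, 13.72 and 13.34 with RL. Its ratios of −0.48, 0.51 and −0.49 were among the largest of the 40 genes and followed the dye, since the Cy5 channel was the brighter one on all 3 arrays. The mean was −0.15 ± 0.58 (SD, n = 3), with an adjusted p of 0.901, and the dye term gave an RL estimate of 0.01 and a dye estimate of 0.50. Without tumor 2, where only 1 dye order remains, Btn1a1 was at −0.49 with an adjusted p of 0.000208, within a range over settings of 0.000208 to 1, so that RL and dye cannot be told apart in that value.

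Plin2, which coats lipid droplets and was singled out after its values were seen, was at 14.69, 14.42 and 15.22 in the controls and 14.48, 14.16 and 15.02 with RL. The 3 ratios of −0.21, −0.26 and −0.21 had the smallest spread among the genes with a limma p under 0.05 (0.03, SD, n = 3), at an adjusted p of 0.504. Dgat1 and Dgat2, which add the last acyl chain to triglyceride, were lower in all 3 tumors with means of −0.12 and −0.18. Gpam, which acylates glycerol phosphate, and Lpin1, the phosphatidate phosphatase, had means of −0.03 and 0.06. Fabp3, a fatty acid carrier of the cytosol, had a mean of 0.03, and Lpl, which frees fatty acids from lipoproteins, had −0.34, 0.08 and −0.06, with a second probe at −0.25, −0.21 and −0.19. Cd36, which takes up fatty acids, was well above background in 2 control and 2 RL channels and was not tested. In all, 4 of 9 genes of this role were lower in every tumor (Xdh, Plin2, Dgat1 and Dgat2) and none was higher. This is 44.4%, beside 13.5% of all genes tested. With the mean over the probes of a gene 5 were lower. With processed signals and without the spatial loess 3 were lower, and 0 under median centring.

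**Figure D3:**
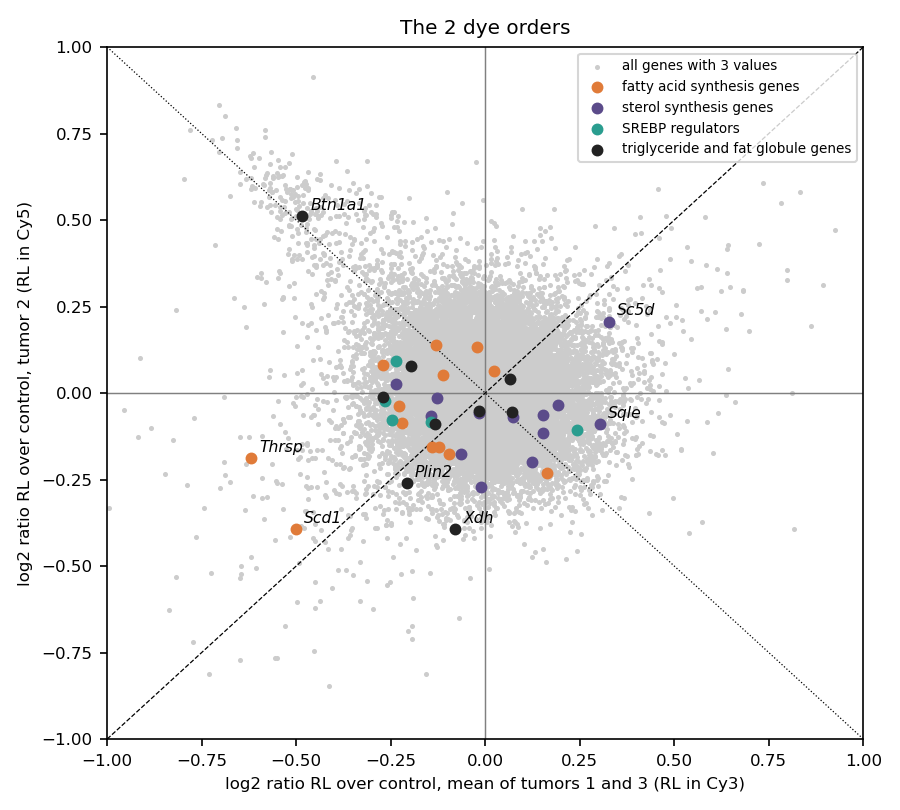
Log2 ratio of RL over control in the mean of tumors 1 and 3, with RL in Cy3 (x axis), against tumor 2, with RL in Cy5 (y axis), for 21721 genes with 3 values (grey; 7 lie outside the axes) and for the 40 genes in color by role. Scd1, Thrsp and Plin2 lie at the lower left and Sc5d at the upper right, with Thrsp farther from the dashed line of equal ratios than the other three, and Btn1a1 lies on the dotted line of opposite ratios.

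Tumor 2 and the other two tumors often differed in sign, among the 40 genes about as often as among all genes. A ratio of one sign in tumors 1 and 3 and the other in tumor 2 was found for 15 of them (37.5%) and for 34.5% of all genes tested. Across the 40 genes, which are not independent replicates, Pearson's r of the ratios was 0.654 between tumors 1 and 3, −0.047 between tumors 1 and 2 and −0.037 between tumors 2 and 3. Over all genes these values were 0.453, −0.111 and −0.108. No other array than that of tumor 2 had RL in Cy5, so a difference between this tumor and the other two cannot be told apart from the dye. Without it, 1501 of all genes and 7 of the 40 passed the adjusted p of 0.05 by limma: Scd1, Thrsp, Btn1a1, Dgat2 and Elovl5 lower, and Sc5d and Sqle higher.

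The control cultures also differed between tumors. The median range of the normalized log2 control level over the 3 tumors was 0.41 for the 40 genes and 0.31 for all genes tested. The widest was that of Fads1 (1.28), at 12.35 in tumor 1 and 11.28 and 11.07 in tumors 2 and 3, and the narrowest that of Fdft1 (0.092). The controls did not keep one order of tumors: tumor 1 was the highest for Scd1 and Fads1 and the lowest for Dgat2, at 9.22 beside 10.14 and 9.88, while tumor 3 was the highest for Plin2. The control of tumor 2 was read in Cy3 and the other controls in Cy5.

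Other genes of these pathways were set beside them. For comparison, 14.1% of all genes tested were higher in all 3 tumors and 13.5% were lower. Of 9 further sterol genes, 2 were higher in all 3 tumors and none lower, with a median log2 ratio of 0.03: Msmo1, the sterol methyl oxidase, with a mean of 0.17, and Ggps1, which makes geranylgeranyl diphosphate, with 0.06. Of 19 further fatty acid genes tested, 1 was higher (Elovl7, an elongase, 0.18) and 2 were lower (Pgd, which supplies NADPH, −0.15, and Acacb, the mitochondrial acetyl-CoA carboxylase, −0.13), with a median of −0.04. Of 18 further triglyceride and fat globule genes, 2 were higher (the acyltransferase Gpat3, 0.10, and the phosphatase Lpin2, 0.06) and 1 was lower (Cidea, a droplet protein, −0.20), with a median of −0.0040. None of these genes passed the adjusted p of 0.05 by limma with all 3 tumors and no dye term. Without tumor 2, where only 1 dye order remains, Rab18 (−0.30) and Slc27a1 (−0.32) passed it as lower and Vldlr (0.27) as higher. Mfge8, a protein of the globule membrane named here after its values were seen, had ratios of −1.25, 0.10 and −0.57 and an adjusted p of 0.576 by limma. It was at −0.41 with an adjusted p of 0.0104 with the dye term and at −0.91 with 3.69e-07 without tumor 2. Without tumor 1 it was at −0.24 with an adjusted p of 0.9998 by limma. The proportion of false positives by rank product was 0.0250, and the range over settings was 3.69e-07 to 1.

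All 14 genes of lipid breakdown and sterol export had a mean below 0, with a median of −0.08. Of these, 5 were lower in all 3 tumors (35.7%, beside 13.5% of all genes tested), 9 had mixed signs and none was past the threshold of limma. Mgll, the lipase that splits monoglycerides, was at 10.98, 8.69 and 8.79 in the controls and 9.95, 8.36 and 8.33 with RL. Its ratios of −1.03, −0.33 and −0.46 had a mean of −0.61 ± 0.37 (SD, n = 3). With all 3 tumors this was larger in size than the mean of any of the 40 genes. Without tumor 1 it was −0.395, beside −0.400 for Scd1, so this rank depended on tumor 1. The adjusted p of Mgll was 0.245 by limma and 0.000186 with the dye term, within a range over settings of 5.51e-06 to 1. Cpt1a, which brings fatty acids into mitochondria, had a mean of −0.31 at an adjusted p of 0.390 by limma, 0.0619 with the dye term and 0.00205 without tumor 2, within a range over settings of 0.00205 to 1. Mylip, an LXR target that degrades lipoprotein receptors, and Acadl, an acyl-CoA dehydrogenase, had means of −0.17 and −0.12.

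Several milk protein genes differed by more than any lipid gene. All 6 that were tested, of 8 listed (all but Csn1s2a and Glycam1), were lower with RL in every tumor, with a median of −0.59, and 3 of them passed the adjusted p of 0.05 by limma (0.023% of all genes were called lower). These calls depended on the setting: 0 of all genes passed with processed signals, under median centring or without the pairing by tumor, 1 without tumor 1 and 2 without tumor 3. Lalba, a subunit of lactose synthase, had ratios of −1.40, −1.87 and −1.24 (adjusted p 0.00997). Wap, a whey protein, had a mean of −1.01 and Csn1s1, a casein, of −0.72, both at an adjusted p of 0.0435 by limma, and Csn2, another casein, had a mean of −0.47 at 0.181 (0.000629 with the dye term). The median of the milk proteins lay below those of the 4 lipid groups in each tumor. Any part of the lower milk protein values in those of Scd1 and Thrsp was not tested. The summed intensity of the milk proteins, led by Lalba, was 159118 in the control and 68785 in the RL culture of tumor 1, 16331 and 8556 in tumor 2, and 3983 and 2314 in tumor 3.

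**Figure D4:**
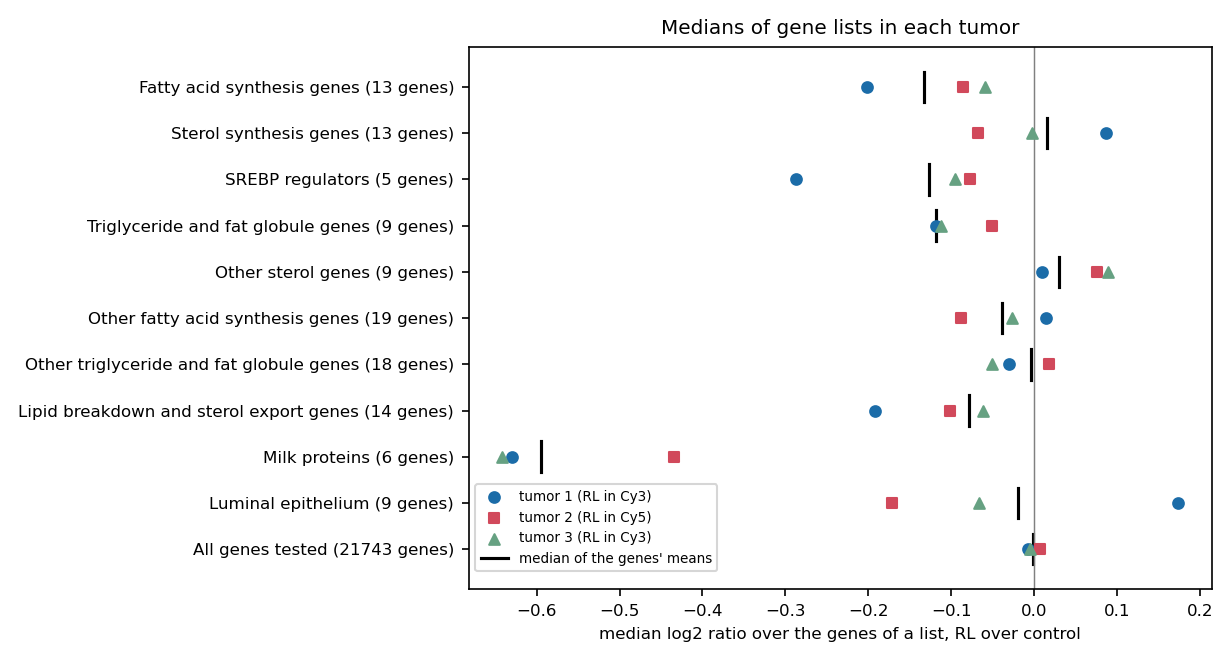
Median log2 ratio of RL over control in each tumor (points) and median of the means of the genes (bars) for 11 gene lists, with the number of genes tested. The milk proteins lie at −0.63, −0.43 and −0.64 in tumors 1, 2 and 3, the 4 lipid groups between −0.29 and 0.09, and all genes at 0.0076 or nearer to 0.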

How the data were processed

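On 1 two-color Agilent array for each of 3 PyMT tumors, RNA of an RL culture was hybridized with RNA of an untreated culture. The authors deposited spot intensities from Agilent Feature Extraction 10.7.3.1, given here as uncorrected medians of spot and background, beside processed intensities and log10 ratios of Cy5 over Cy3. A deposited table of normalized log2 ratios states no direction and was used as an alternative. It ran as Cy5 over Cy3 when set against the scanner values (Pearson's r 0.625, 0.608 and 0.627, column medians 0.0033, 0.00036 and 0.00089), and its exact scale and centring stay unknown.

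All steps ran in limma 3.58.1 (R 4.3.3): normexp with an offset of 50, which compresses the ratios of dim genes, intensity loess, a spatial loess of span 0.1, and Aquantile. Control spots and 204, 195 and 223 outlier spots were dropped. RefSeq accessions (GRCm38.p6) named 28026 of 55681 probes. The array was annotated on another build, so no probe coordinates are given. A probe had to be well above background in all 3 cultures of a group, and the brightest probe of a gene was used. Of 12 lipid genes with several such probes, 8 had probe means of one sign, and Insig2, Mvk, Nsdhl and Srebf2 did not.

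Ratios of RL over control were fitted with lmFit and eBayes (residual degrees of freedom 2, prior 6.70) and adjusted over 21743 genes. The labels pair both cultures of a tumor, and the arrays shared 1 slide and scan. Lists were described by counts and medians, with no test. Members and lists were chosen with earlier results of these data known. Channel values are given for those of the 42 genes with one sign in all tumors and a mean of at least 0.25 in size and for 10 genes set by name. Plin2, Mfge8, Fabp4, Rab18, Slc27a1, Vldlr, the channel values of Mgll and the cell type markers given with a ratio fall outside the rules. They were chosen after their values were seen. From each other list at most 4 genes of one sign with the largest means are named. The programs were tested on simulated data, and the rank product used 1000 permutations. Alternatives varied background, normalization, filter, probe, dye, moderation, pairing and the tumors used.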

Additional observations from a re-analysis of the deposited data

How the results depend on the processing

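Under the alternatives 249 gene values kept their direction and side of the threshold, 15 passed it in the same direction and 8 changed sign. Values that changed sign under median centring were −0.19 for Acaca, −0.028 for Srebf2 and −0.10 for Hmgcs1, and with the dye term 0.013 for Btn1a1. With 1 tumor left out, Acaca lay between −0.023 (without tumor 2) and 0.062, Srebf2 between −0.039 (without tumor 1) and 0.24, and Btn1a1 between −0.485 and 0.018, above 0 without tumor 1 (0.0089) or tumor 3. The cause was not tested. Under median centring the medians of fatty acid, sterol, SREBP regulator and fat globule genes were −0.31, −0.14, −0.30 and −0.27, with all genes at −0.11. The dye term moved the fat globule median to −0.060. Leaving out 1 tumor gave −0.13 to −0.048 for fatty acid synthesis, −0.24 (without tumor 2) to −0.039 for SREBP regulator and −0.13 to −0.037 for fat globule genes, nearest 0 without tumor 1, and −0.046 (without tumor 3) to 0.074 (without tumor 2) for sterol genes.

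The count of all genes past the threshold, 6, was 18 without background correction, 0 with processed signals, 0 under median centring, 3 without a filter on dim probes, 3 with the stricter filter, 292 with the dye term, 30 with an intensity trend, 20 with robust moderation, 88 by rank product, and 1 to 1501 with 1 tumor left out, highest without tumor 2. The count among the 40 lipid genes was 2 with the dye term, 1 by rank product and 0 to 7 with 1 tumor left out, and 0 under each other alternative. Without the pairing by tumor (no replicate block) 0 genes passed, and no call among the 40 changed. The median spot was close to its background in both dyes, at 42 to 45 over 31 to 36 in Cy3 and 96.5 to 100.5 over 70 to 73 in Cy5, and Olah and Cd36 were too dim to be tested.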
